A study of Mus musculus with 12 samples.

Results

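The genes described here are 37 transcription factor genes that give dorsal root ganglion sensory neurons their identity, taken as a fixed list of symbols that was drawn up with earlier results of these data known. All 37 were among the 55416 genes counted in each library. Drgx was matched through its older symbol Prrxl1. They fall by background knowledge into 8 factors of the nociceptor (pain-sensing) lineage, 7 of the mechanoreceptor and proprioceptor (touch and body-position) lineages, and 22 that act across sensory neurons or have no single class.

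Poly(A) RNA of dorsal root ganglia from adult mice labelled C57Bl6 was sequenced in 12 libraries without strand information. The 6 inducible Prdm12 knockout (iKO) libraries carried Rosa26Cre ERT2 and a Fl/Fl genotype, were injected with tamoxifen, and were taken 1 month later according to the series design. The 6 controls were of 4 kinds. Among the 4 that received tamoxifen, control 1 was Rosa26Cre ERT2 with Fl/+, controls 2 and 3 were Fl/+ without the Cre, and control 4 was Rosa26Cre ERT2 with no floxed allele. Controls 5 and 6 shared the iKO genotype and were injected with corn oil. Cre expressed from Rosa26 is not restricted to neurons. Females were iKO 1 to 3 and controls 1 and 2, and the other 7 libraries were male. Whether each library came from a separate animal is not in the labels, and p-values then measure only the spread among these 12 libraries, which may be technical.

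Sensory neuron identity is set by layers of transcription factors. Neurogenins start neurogenesis in the neural crest, Isl1 and Pou4f1 then switch on a shared sensory programme, and lineage factors such as Runx1 for nociceptors and Runx3 for proprioceptors split the neurons into classes. Many of these factors stay on in the adult ganglion, where they keep class-specific receptors and channels expressed. Prdm12 is a zinc finger protein of the PRDM family that the embryo needs to make nociceptors.

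The library totals ran from 13943784 to 20377766 counts. Prdm12, the targeted gene, had 18.6 to 25.4 CPM (counts scaled to a common library size) in iKO libraries and 64.6 to 147 CPM in controls (log2 fold change -2.33 ± 0.18 SE, adjusted p = 8.59e-05 in the edgeR quasi-likelihood fit). The 12 sensory neuron markers checked were all detected, at a summed 11620 to 14200 CPM in iKO libraries and 12200 to 13560 CPM in controls. Only 1 of 8 autonomic neuron markers and 3 of 8 spinal cord markers passed the filter on low counts. The iKO 1 library stood apart: it had the highest sums for macrophage (708 CPM, against 234 to 412 CPM in the other 11), endothelial, mural and fibroblast markers and the lowest for sensory neuron markers. In iKO 2 to 6 endothelial markers summed to 97.2 to 109.5 CPM, against 121 to 144 CPM in controls. Log2 fold changes were positive for all 10 myelinating Schwann cell markers (median 0.25, 3 at an unadjusted p under 0.05) and negative for all 6 erythroid (median -0.74) and all 6 skeletal muscle markers (median -0.70), and none of these was called in edgeR. Their part in the results was not tested. In whole tissue, fewer cells of a type and less RNA per cell cannot be told apart.

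Of the 37 factors 34 passed the filter and were tested. Neurog1, Neurog2 and Neurod6 did not. Neurog1, which in the mouse embryo starts the later wave of mostly small neurons, had 1 to 8 counts per library. Neurog2, which starts the earlier wave of mostly large neurons, had 1 or 2 counts. Neurod6, a related basic helix-loop-helix factor, had 1 count in iKO 5 and 0 in the other 11 libraries. These embryonic genes were thus at or near the limit of detection, and no difference between iKO and control libraries could be read from them.

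Levels between genes are compared per exon length (CPM per kb of exon, with lengths from the GENCODE M21 annotation of GRCm38, an older build than that of the counts). Isl2, a LIM homeobox gene, stood highest on this scale at 78.0 ± 8.004 CPM per kb in iKO libraries and 80.8 ± 8.3 CPM per kb in controls (SD, n = 6 each). Klf7, a Krüppel-like zinc finger factor, followed at 51.5 and 56.1 CPM per kb (iKO and control means). Pou4f1, Isl1, Drgx, Tlx3 and Tlx2 came next, with means between 27.2 and 37.9 CPM per kb in either group. In that order the neighbours Pou4f1, Isl1 and Drgx lay within their spread of each other. Eya1 was the lowest tested factor, at 0.25 CPM per kb in iKO libraries and 0.289 CPM per kb in controls.

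Paralogues stood in the same order in both groups, apart from Tlx2 and Tlx3. Isl2 exceeded Isl1 (33.6 CPM per kb in iKO libraries and 33.1 CPM per kb in controls). Pou4f1 (37.9 CPM per kb in iKO libraries and 34.7 CPM per kb in controls) exceeded Pou4f3 (11.4 and 10.01 CPM per kb) and Pou4f2 (6.37 and 5.97 CPM per kb). Runx1 stood at 8.04 CPM per kb in iKO libraries and 8.75 CPM per kb in controls. Its paralogues were lower and within their spread of each other in controls, Runx3 at 1.17 and 0.995 CPM per kb and Runx2 at 0.65 and 0.868 CPM per kb (iKO and control means). The helix-loop-helix factors of the Ebf family ran from Ebf1 (18.1 and 18.6 CPM per kb) through Ebf3 (13.1 and 12.7 CPM per kb) to Ebf2 (1.69 and 2.06 CPM per kb). Tlx2 and Tlx3 were close, with Tlx3 at 36.3 and Tlx2 at 34.3 CPM per kb in iKO libraries and at 27.2 and 28.5 CPM per kb in controls.

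**Figure D1:**
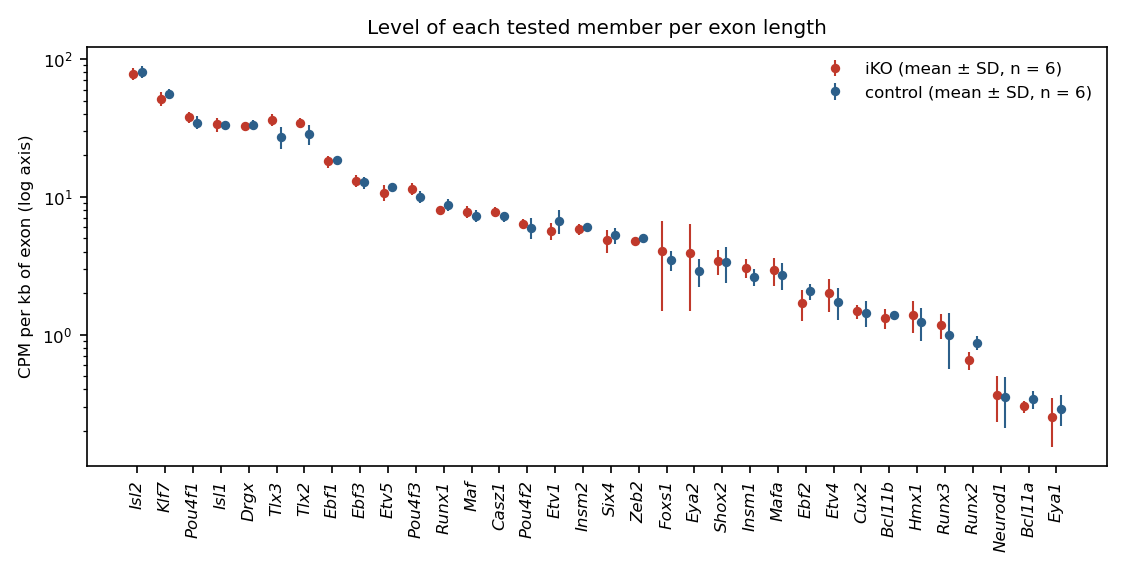
Level of each of the 34 tested factors per kb of exon, on a log axis, as the mean ± SD of the 6 iKO (red) and 6 control (blue) libraries. Isl2 is highest at 78.0 CPM per kb in iKO and 80.8 CPM per kb in control libraries, and the 2 groups lie close together for nearly all factors.

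Between iKO and control ganglia, none of the 34 tested factors passed an adjusted p of 0.05 in edgeR (quasi-likelihood test, Benjamini-Hochberg over all 16384 genes), where 0.946% of genes were called, 0.537% higher and 0.409% lower. At an unadjusted p under 0.05 there were 4, of which 3 were higher and 1 was lower (11.8%). Over all genes tested that share was 9.52% (5.33% higher and 4.18% lower), so the factors were close to the background. The median log2 fold change was 0.05, against 0 over all genes, and the median absolute value was 0.12, against 0.09. In no tested factor were all iKO libraries on 1 side of all controls, which was so in 1.54% of all genes. For 24 of the 34 the 95% interval of the fold change lay wholly within a 1.5-fold change in either direction, and for all 34 within a 2-fold change. Over all 16384 genes tested, 13049 had intervals within 1.5-fold and 15706 within 2-fold, so such intervals were not particular to the factors.

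**Figure D2:**
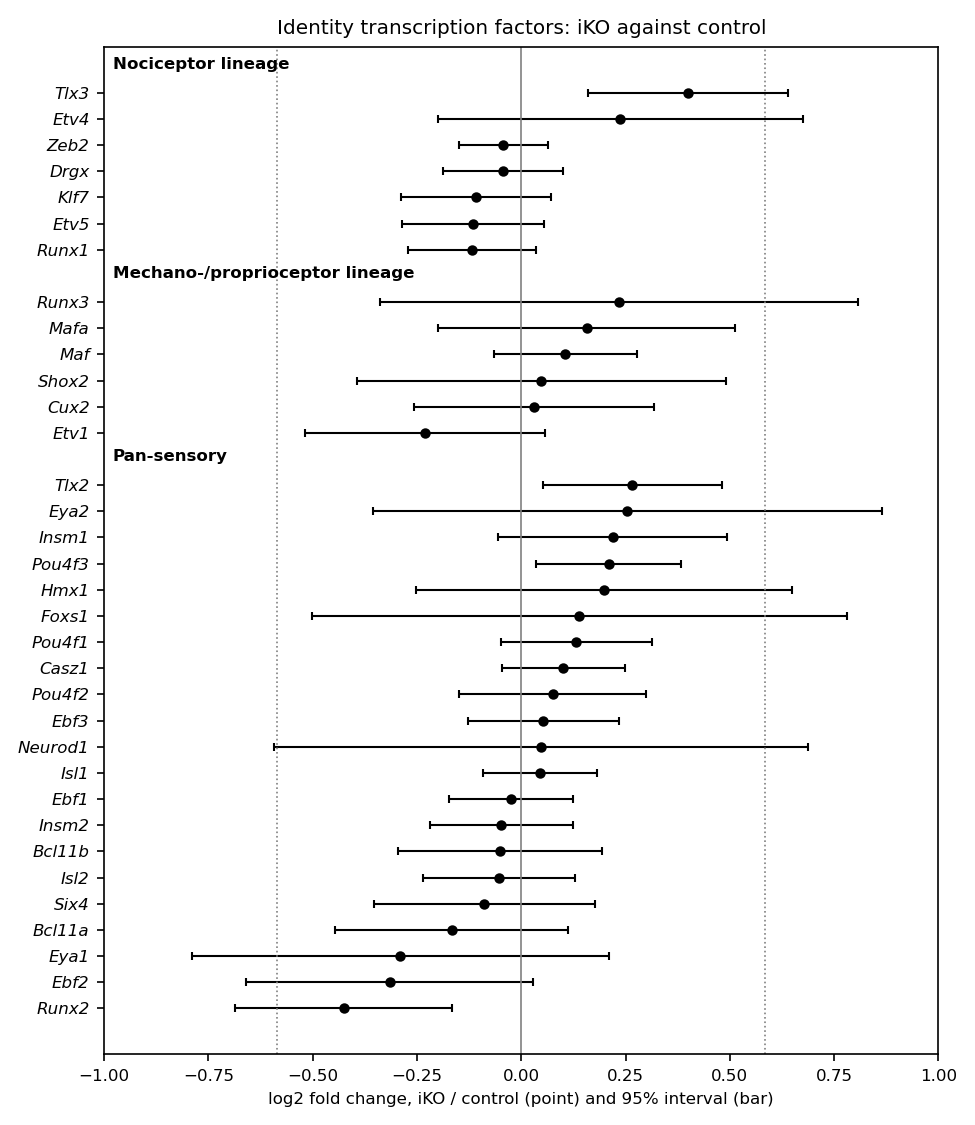
Log2 fold change of each tested factor, iKO over control, as a point with its 95% interval, grouped by lineage. The dotted lines mark a 1.5-fold change. Intervals of 4 factors (Tlx3, Tlx2, Pou4f3 and Runx2) leave out 0, and none of the 34 was called after adjustment.

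Among the nociceptor factors the largest value was that of Tlx3, a homeobox factor that acts beside Runx1 when nociceptors form in the mouse embryo. Tlx3 had 55.6, 64.9, 59.4, 50.8, 52.3 and 50.8 CPM in iKO 1 to 6, against 42.5, 37.3, 33.5, 45.3, 55.2 and 36.7 CPM in controls 1 to 6. All iKO libraries lay above 5 of the 6 controls, and only control 5, a corn-oil control, reached into the iKO range. Its log2 fold change reached 0.40 ± 0.11 (SE, 95% interval 0.16 to 0.64, adjusted p = 0.164 in edgeR). The choice of controls moved this value, and the tool moved its adjusted p. Against the 4 tamoxifen-injected controls alone Tlx3 was 0.50 higher on the log2 scale with adjusted p = 0.0163 in edgeR, where 1.41% of genes were called. Without control 5 it was 0.50 higher with adjusted p = 0.00742 (1.14% of genes called), and DESeq2 called it over all 12 libraries at 0.40 with adjusted p = 0.0401 (1.8% of genes called). Against the 2 corn-oil controls alone the difference was 0.16 ± 0.15 on the log2 scale (SE, adjusted p = 0.9998 in edgeR). The last comparison holds genotype constant but not the injected agent, so knockout and tamoxifen cannot be told apart in it. Both of its controls were male, and they stood apart, control 5 at 55.2 CPM and control 6 at 36.7 CPM.

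The other 6 tested nociceptor factors had log2 fold changes from -0.12 to 0.24, and none was called. Klf7, the most abundant of them by CPM, had 329, 471, 448, 412, 428 and 426 CPM in iKO 1 to 6, against 438, 420, 498, 496, 467 and 418 CPM in controls 1 to 6. The groups overlapped, iKO 1 was the lowest library, and the log2 fold change was -0.11 ± 0.08 SE. In the GENCODE M21 annotation 39.3% of the exon bases of Klf7 are shared with a long non-coding gene on the other strand, and reads without strand information cannot be told apart there. Runx1, which directs and keeps the nonpeptidergic nociceptor programme, had 92.0 to 105 CPM in iKO libraries and 89.9 to 115 CPM in controls, a log2 fold change of -0.12 ± 0.07 SE with a 95% interval of -0.27 to 0.04. Drgx, a paired-type homeobox factor that nociceptors need to reach the spinal dorsal horn, had 123 to 151 CPM in iKO libraries and 121 to 150 CPM in controls, with a 95% interval of the log2 fold change from -0.19 to 0.10. For Zeb2, a zinc finger homeobox factor active in Schwann cells as well as neurons, the interval was narrow, from -0.15 to 0.06. Etv5 and Etv4, a related pair of ETS factors, had log2 fold changes of -0.11 ± 0.08 and 0.24 ± 0.20 (SE). Etv4 was highest in iKO 1, at 9.19 CPM.

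**Figure D3:**
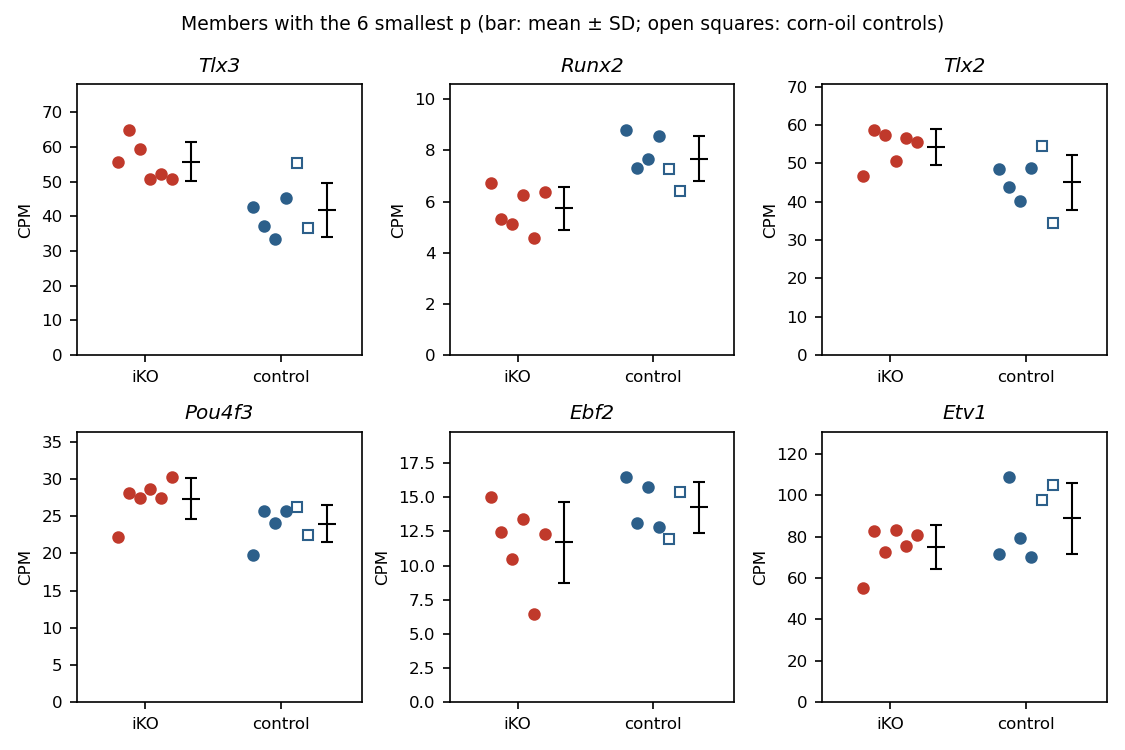
CPM in each library for the 6 factors with the smallest p, iKO (red) left of control (blue), with open squares for the corn-oil controls and bars for the mean ± SD of 6 libraries. For Tlx3 the groups meet only through control 5 at 55.2 CPM. For Runx2 they meet only where iKO 1 at 6.74 CPM lies above control 6 at 6.42 CPM.

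Runx2, a Runt-domain factor best known as the regulator of bone formation, was the 1 factor lower in iKO ganglia at an unadjusted p under 0.05. It had 6.74, 5.32, 5.13, 6.26, 4.59 and 6.39 CPM in iKO 1 to 6, against 8.81, 7.31, 7.67, 8.55, 7.27 and 6.42 CPM in controls 1 to 6. Apart from iKO 1, each iKO library was below every control. Its log2 fold change reached -0.43 ± 0.12 (SE, 95% interval -0.69 to -0.17, adjusted p = 0.168 in edgeR), and DESeq2 gave adjusted p = 0.0953. Leaving out iKO 1 and control 6 together gave -0.51 with adjusted p = 0.0363 in edgeR, where 2.09% of genes were called. This was the 1 setting of 26 that called Runx2, and it leaves out iKO 1 and control 6, the only 2 libraries that overlap. Against the 2 corn-oil controls alone the value was -0.25 ± 0.21 (SE, adjusted p = 0.9998 in edgeR). Counts for Runx2 were 73 to 140 per library. An antisense gene, Runx2os1, shares 5.87% of its exon bases and averaged 0.0189 CPM in iKO libraries and 0.119 CPM in controls.

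Runt-domain proteins bind the core TGTGGT, and the promoter stretches that hold it are shown because 3 of the factors are Runt-domain proteins. The search covered both strands of the 250 bases before the start site in RefSeq (GRCm38.p6), for 38 promoters of 27 of the factors. Pou4f3 and Tlx2 were among the factors with no promoter in this set, so its shares and medians do not cover them. Of these 38 promoters 13.2% held the core, against 14% of all 32851 promoters, so the share was close to that of all promoters. The matches, in 30-base windows 5′ to 3′ on the strand of the gene with the core in capitals (ACCACA is the core read from the other strand), were as follows.
Runx2, chr17:44814690-44814719, minus strand: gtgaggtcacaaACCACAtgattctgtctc
Runx3, chr4:135120499-135120528, plus strand: tctggtccctcaACCACAgaACCACAaggc
Etv1, chr12:38779878-38779907, plus strand: aaggctggagcgTGTGGTgggtggactccg
Drgx, chr14:32599677-32599706, plus strand: tgcagggctTGTGGTtgggacccctgagaa
Ebf1, chr11:44618070-44618099, plus strand: aaaaaaaaaaaaaaaatcTGTGGTtggcgt

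The core began 80 bases before the start site in Runx2, and a Runx3 promoter held it at 134 and at 126 bases before its start. Runx3, Etv1 and Ebf1 each also had another promoter with 0 matches. Tlx3, the factor with the smallest p, had 0 matches in its window. It also did not hold TAATTA, a longer homeodomain-type site present in 4.84% of all promoters on either strand. The shorter homeodomain core TAAT, which does occur in the Tlx3 window, was not searched for. The 250 bases of Tlx3 were as follows, all in lower case because neither TGTGGT nor TAATTA is in them.
Tlx3, chr11:33203589-33203838, minus strand: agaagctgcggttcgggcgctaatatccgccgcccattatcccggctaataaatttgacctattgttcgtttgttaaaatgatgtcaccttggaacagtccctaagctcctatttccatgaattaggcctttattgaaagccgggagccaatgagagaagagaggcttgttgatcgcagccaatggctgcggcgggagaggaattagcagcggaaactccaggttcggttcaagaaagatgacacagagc

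A match or its absence describes these letters in this window and was not tested for binding. Over the 38 promoters the median G and C content was 59.0%, against 52.4% over all promoters, and the median number of CpG dinucleotides was 13, against 6.

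Among the pan-sensory factors 3 had an unadjusted p under 0.05, Runx2 and the following pair. Tlx2, the homeobox paralogue of Tlx3 with a known role in enteric neurons, had 46.8, 58.8, 57.4, 50.6, 56.6 and 55.6 CPM in iKO 1 to 6, against 48.5, 43.9, 40.1, 48.8, 54.6 and 34.4 CPM in controls 1 to 6. As for Tlx3, control 5 was the highest control, and iKO 1 was the lowest iKO library (log2 fold change 0.27 ± 0.10 SE, adjusted p = 0.381 in edgeR). Pou4f3, a POU homeobox factor also needed by inner ear hair cells, had 22.2, 28.2, 27.4, 28.6, 27.4 and 30.3 CPM in iKO 1 to 6, against 19.8, 25.8, 24.1, 25.6, 26.3 and 22.5 CPM in controls 1 to 6. The 5 iKO libraries other than iKO 1 lay above every control (log2 fold change 0.21 ± 0.08 SE, adjusted p = 0.398 in edgeR). The fold changes of Tlx2 and Pou4f3 kept their sign and stayed without a call in all 26 alternative settings.

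The core selectors of sensory identity had narrow intervals around no change. Isl1, the LIM homeobox factor that with Pou4f1 ends neurogenesis and starts sensory differentiation, had 114 to 161 CPM in iKO libraries and 122 to 140 CPM in controls, with a 95% interval of the log2 fold change from -0.09 to 0.18. For its paralogue Isl2 the interval was -0.23 to 0.13. Pou4f1 had 147 to 198 CPM in iKO libraries and 134 to 178 CPM in controls, with an interval of -0.05 to 0.31. Ebf1, the most abundant of this group by CPM, had 142, 180, 180, 189, 188 and 180 CPM in iKO 1 to 6, against 183, 171, 187, 195, 190 and 164 CPM in controls 1 to 6. Only iKO 1 lay below the controls, and the interval was -0.17 to 0.12. These intervals leave out a change of 1.5-fold in either direction.

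Ebf2, known as a regulator of brown fat, had 15.02, 12.5, 10.5, 13.4, 6.48 and 12.3 CPM in iKO 1 to 6, against 16.5, 13.1, 15.8, 12.8, 11.9 and 15.4 CPM in controls 1 to 6. The groups overlapped and iKO 5 was the lowest library, with a log2 fold change of -0.32 ± 0.16 (SE, adjusted p = 0.556 in edgeR). Without iKO 5 it was -0.16. Casz1 (a zinc finger factor), Ebf3, Pou4f2, Insm1 and Insm2 (zinc finger factors of neurons and endocrine cells), Bcl11a and Bcl11b (zinc finger partners of chromatin remodelling complexes) and Six4 had log2 fold changes from -0.17 to 0.22. The widest intervals belonged to Neurod1 (0.64 to 1.55 CPM in iKO libraries and 0.69 to 1.604 CPM in controls, interval -0.59 to 0.69), Eya2, Foxs1, Eya1 and Hmx1, a homeobox gene. For these 5 factors the interval reached past a 1.5-fold change in at least 1 direction, so the data do not leave out such a change.

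Of the mechanoreceptor and proprioceptor factors 0 of 6 tested had an unadjusted p under 0.05. Etv1, an ETS factor that proprioceptors need to connect to motor neurons, had the smallest p of them and was the most abundant by CPM. It had 55.0, 82.9, 72.8, 83.3, 75.6 and 80.8 CPM in iKO 1 to 6, against 71.6, 109, 79.4, 70.0, 97.7 and 105 CPM in controls 1 to 6. Controls 2, 5 and 6 were above every iKO library, whereas controls 1, 3 and 4 lay among them (log2 fold change -0.23 ± 0.13 SE, adjusted p = 0.617 in edgeR). Without control 2 the value was -0.10. Runx3, which specifies proprioceptors, had 3.70 to 6.78 CPM in iKO libraries and 2.77 to 8.06 CPM in controls, with a wide interval of -0.34 to 0.81. Maf and Mafa, leucine zipper factors of touch receptor development, had log2 fold changes of 0.11 ± 0.08 and 0.16 ± 0.17 (SE). Shox2, a homeobox factor of TrkB-positive touch neurons, and Cux2, a cut-type homeobox factor found in mechanosensory neurons, had values of 0.05 ± 0.20 and 0.03 ± 0.13 (SE).

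Several of these factors varied together from library to library. These pairs were examined after their values were seen, so their permutation p-values are descriptions and not independent evidence. No pairs of other genes were set beside them, so covariation of these factors cannot be told apart from differences between whole libraries. Shox2 had 6.58, 12.6, 11.9, 11.3, 12.5 and 12.5 CPM in iKO 1 to 6, against 6.48, 14.8, 10.9, 8.55, 14.5 and 11.2 CPM in controls 1 to 6. It shares 4.62% of its exon bases with Rsrc1 on the other strand, which averaged 58.75 CPM in iKO libraries and 60.55 CPM in controls. Mafa had 4.86, 9.43, 7.28, 8.11, 8.37 and 10.1 CPM in iKO 1 to 6, against 5.85, 7.77, 6.85, 5.93, 10.2 and 7.71 CPM in controls 1 to 6. Both were low in iKO 1, control 1 and control 4 and high in control 5. Over the 12 libraries log2 CPM of Mafa and Shox2 had Pearson's r = 0.867 (permutation p = 0.00024, adjusted over 15 pairs 0.0036) and Spearman's rho = 0.853 (permutation p = 0.00081, adjusted 0.0122). The r was 0.766 without the 2 libraries farthest from the median (iKO 1 and control 5), 0.866 among the 8 libraries of replicates 1 to 4, 0.931 within the iKO libraries and 0.852 within the controls. For Etv1 and Shox2 r was 0.754 (permutation p = 0.00406, adjusted 0.0304) and rho was 0.713 (permutation p = 0.0115, adjusted 0.0575), with r = 0.528 without iKO 1 and control 2, the 2 farthest from the median, and 0.83 among replicates 1 to 4. Runx3 and Shox2 had r = 0.653 (permutation p = 0.0212, adjusted 0.0795) and rho = 0.776 (permutation p = 0.00468, adjusted 0.0351), with r = 0.546 without controls 1 and 3 and 0.544 among replicates 1 to 4. Within the iKO libraries this r was 0.254, and within the controls it was 0.866. No other pair among the 6 factors passed 0.05 after adjustment by either measure. Pvalb, a proprioceptor marker, ranged over 52.1 to 88.0 CPM in iKO libraries and 48.4 to 152 CPM in controls, highest in control 6 and lowest in control 1. The part of cell make-up in this covariation was not tested.

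**Figure D4:**
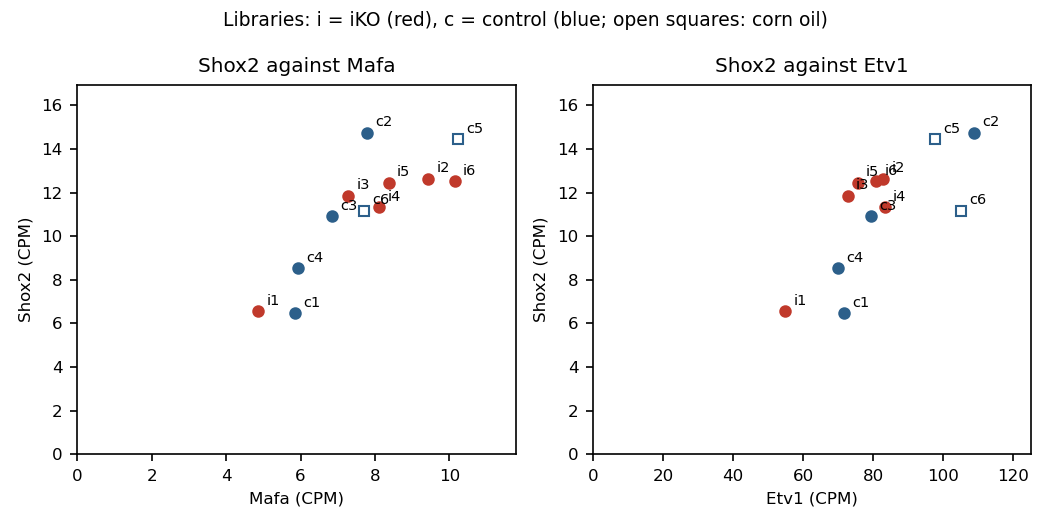
CPM of Shox2 against CPM of Mafa (left) and of Etv1 (right) in the 12 libraries, with iKO in red (i1 to i6) and control in blue (c1 to c6, open squares for corn oil). Libraries low in one factor, such as i1 and c1, are low in the other, and r on log2 CPM is 0.867 for Mafa and 0.754 for Etv1.

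The iKO 1 library was the highest of all 12 for 5 tested factors and the lowest for 10. Foxs1, a forkhead factor of early sensory neurons and of vessel-wall cells, had 12.2 CPM in iKO 1, against 3.27 to 4.18 CPM in iKO 2 to 6 and 3.56 to 5.66 CPM in controls. Eya2, a coactivator of SIX-type homeobox proteins, had 26.0 CPM in iKO 1, against 6.32 to 11.1 CPM in iKO 2 to 6 and 5.88 to 11.2 CPM in controls. Eya1, its paralogue, had 3.42 CPM in iKO 1, against 1.35 to 1.89 CPM in iKO 2 to 6 and 1.53 to 2.89 CPM in controls. In the same library fibroblast markers summed to 3927 CPM, against 1418 to 2162 CPM in the other 11. Six4, Klf7, Isl1, Isl2 and Ebf1 were lowest there, beside the lowest sum of sensory neuron markers, 11620 CPM. The part of these markers in the values was not tested. Without iKO 1 the log2 fold change was -0.20 for Foxs1 and 0.01 for Eya2, against 0.14 and 0.25 with it, and neither was called in any setting.

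**Figure D5:**
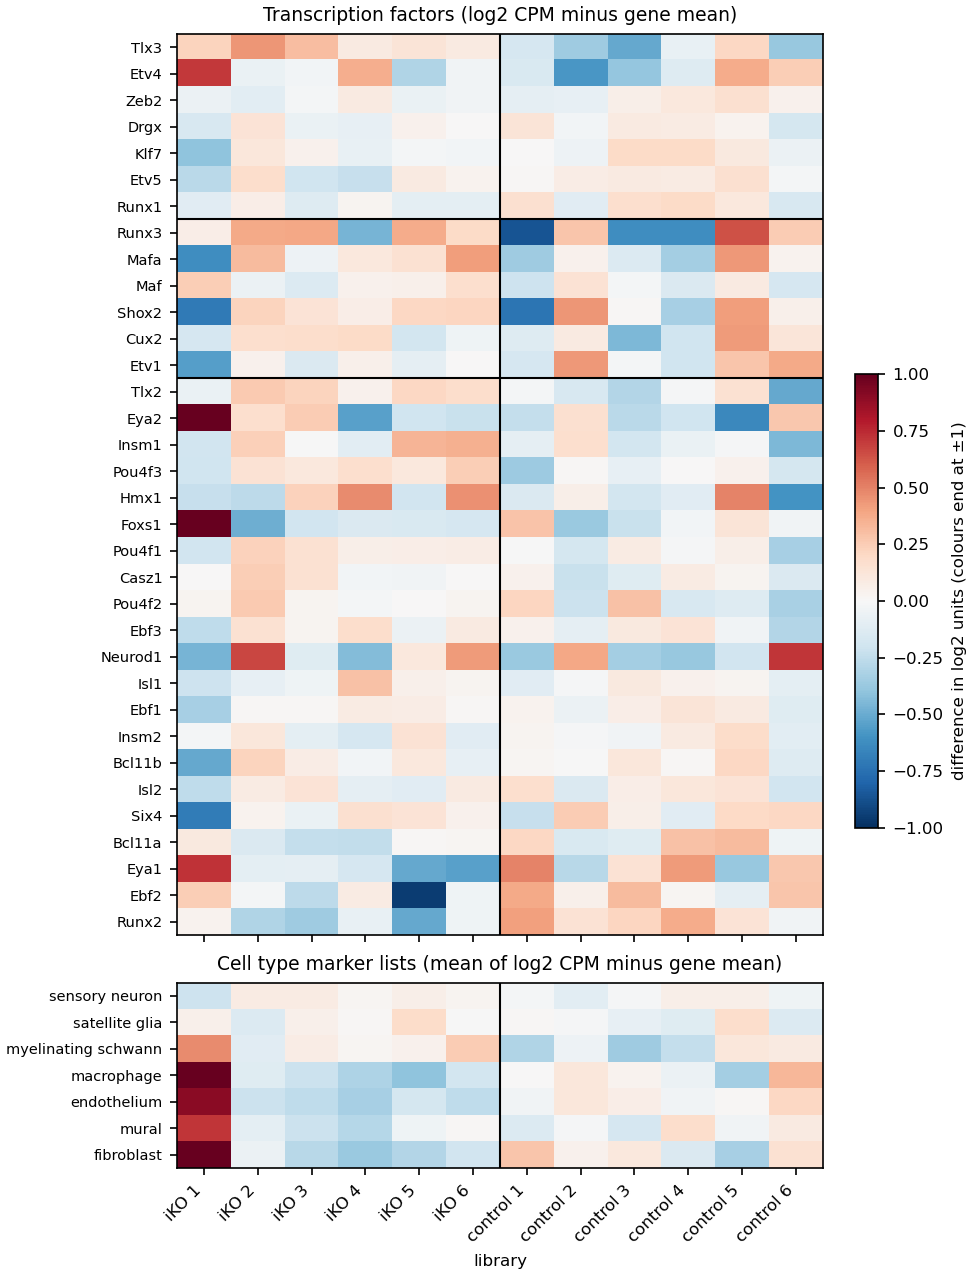
Log2 CPM of each tested factor minus its mean over 12 libraries (top, ordered by lineage and fold change) and marker scores of 7 cell types (bottom), with iKO libraries left of the line and controls right of it. The iKO 1 column is dark red for Foxs1, Eya2 and the macrophage, endothelial and fibroblast scores, and blue for Shox2 and Six4.

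Sex was the other label that varied within both groups. Between the 7 male and 5 female libraries 0 of 34 factors passed an adjusted p of 0.05 in the same edgeR fit, where 0.0549% of all genes were called. At an unadjusted p under 0.05 there were 3 (8.82%, against 4.11% of all genes). Isl1 averaged 138 CPM in males and 124 CPM in females (log2 fold change 0.16 ± 0.06 SE, male over female, adjusted p = 0.904 in edgeR). Eya2 averaged 7.88 CPM in males and 13.2 CPM in females (-0.67 ± 0.28 SE), and without iKO 1, a female library, the value was -0.33. The third was Zeb2, at 0.11 ± 0.05 SE.

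Partners of these factors, further transcription factors and genes expressed in sensory neuron classes were read from the same fit. The lists were drawn up by function with earlier results of these data known, so their counts are descriptions and not independent evidence. Of 31 partner proteins (cofactors of LIM, Runt, SIX-type and basic helix-loop-helix factors) 30 were tested, 1 rose and 0 fell, with a list median of 0.08. Of the 30, 7 had an unadjusted p under 0.05 in edgeR, against 9.52% of all genes tested. Over all genes tested 0.946% were called. The gene that rose was Lmo1, a LIM-only protein that binds the same LDB adaptors as Isl1, at 19.9 ± 1.89 CPM in iKO libraries and 11.4 ± 0.711 CPM in controls (SD, n = 6 each, log2 fold change 0.80 ± 0.08 SE, adjusted p = 0.000148 in edgeR). All 6 iKO libraries (17.0 to 22.8 CPM) were above all controls (10.7 to 12.4 CPM). The adaptors Ldb1 (0.10 ± 0.05 SE) and Ldb2 (-0.01 ± 0.08 SE), and Cbfb, the obligate partner of Runx proteins (0.01 ± 0.07 SE), were not called. Of 30 further transcription factors of the ganglion 28 were tested and 0 called in edgeR (median 0.06). Here too 7, of 28, had an unadjusted p under 0.05, against 9.52% of all genes tested. The smallest p was that of Hoxd1, a homeobox gene of nociceptors, at 0.44 ± 0.11 SE (adjusted p = 0.0831 in edgeR). It had 26.5 ± 4.66 CPM in iKO libraries and 19.5 ± 0.628 CPM in controls (SD, n = 6 each), and DESeq2 called it (adjusted p = 0.0143). Without iKO 1, the lowest iKO library at 18.0 CPM, it was 0.53 higher with adjusted p = 0.000212 in edgeR, where 364 of 16454 genes were called. Leaving out any other single library gave no call (adjusted p between 0.0823 and 0.239 in edgeR). Hoxd1 was also not called by limma-voom (adjusted p = 0.149) or against the tamoxifen-injected controls alone (adjusted p = 0.117 in edgeR). It was called with no filter, in replicates 5 and 6 and with either marker score as a term.

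Of 25 genes listed as expressed in nociceptor classes, mostly receptors, channels and peptides, 1 rose and 2 fell (median -0.10). An unadjusted p under 0.05 in edgeR was reached by 9 of the 25, against 9.52% of all genes tested. Sst, the somatostatin gene, had a log2 fold change of 0.62 ± 0.11, the inner-ear protein gene Otoa -0.84 ± 0.10 and the cold receptor gene Trpm8 -0.92 ± 0.19 (SE). The call of Trpm8 (adjusted p = 0.0429 in edgeR) was lost when any 1 of 9 libraries was left out, with adjusted p between 0.0575 and 0.137, and that of Sst without the sex term (adjusted p = 0.0943 in edgeR). Of 18 genes listed for mechanoreceptor classes 1 rose and 0 fell (median 0.08), and 2 had an unadjusted p under 0.05 in edgeR. The gene that rose was Ntrk3, the neurotrophin-3 receptor gene, whose expression in proprioceptors Runx3 maintains (log2 fold change 0.58 ± 0.11 SE). Its call (adjusted p = 0.0228) was lost when any 1 of 6 libraries was left out, with adjusted p between 0.05001 and 0.0739.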

How the data were processed

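Raw counts per gene were deposited by the authors for 12 libraries, 1 table each, with no normalization. Per the submitters' processing notes the genome build was GRCm39 and the tools included featureCounts (2.0.1), STAR (2.7.8a) and bcl2fastq (2.20.0.422). Libraries were made with a TruSeq kit without strand information, per the labels' protocols. Neither the annotation release nor the counting options were stated in the sources used. Symbols came from GENCODE M21 by gene identifier (52083 of 55416 identifiers, 99.67% of counts).

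Counts were scaled by TMM, filtered by filterByExpr (16384 genes kept) and tested with edgeR 4.0.16 in R 4.3.3 (quasi-likelihood, robust, with sex and group as terms, 9 residual degrees of freedom). Tests were 2-sided, with p-values adjusted by Benjamini-Hochberg over all genes, threshold 0.05. Standard errors came from the fold change and F, and 95% intervals from the SE and the test's degrees of freedom. The scripts were tested on simulated data. CPM is each count divided by its TMM-adjusted library size. Depth differed little (13943784 to 20377766 counts), and the biological coefficient of variation was 12.8%. Correlations used log2 CPM (prior count 2) and 100000 permutations. DESeq2 1.42.0 and limma 3.58.1 were alternatives. The factors, lists and roles were chosen with earlier results of these data known. Libraries of a group differed by more than counting noise, and none was merged. Named in full were the 6 smallest p, the 2 smallest for sex, and the most abundant factor of each lineage by CPM, and for the lists the called genes (up to 4) or the smallest p.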

Additional observations from a re-analysis of the deposited data

Results flagged for a closer look

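Single libraries stood far from the other 5 of their group for 9 of 68 combinations of factor and group examined. All but 1 of the 9, Pou4f2 in iKO 2, were in the library iKO 1. For independent combinations chance gives about 1 in 20. These combinations share the same 12 libraries and are not independent. Their count can therefore not be set against chance or read as a trait of the iKO group. In iKO 1, Foxs1 was at 12.2 CPM against 3.27 to 4.18 CPM in the other iKO libraries, Eya1 at 3.42 CPM against 1.35 to 1.89 CPM, and Eya2 at 26.0 CPM against 6.32 to 11.1 CPM. Lower in iKO 1 than in the other iKO libraries were Etv1 at 55.0 CPM against 72.8 to 83.3 CPM, Shox2 at 6.58 CPM against 11.3 to 12.6 CPM, Pou4f3 at 22.2 CPM against 27.4 to 30.3 CPM, Six4 at 33.4 CPM against 51.7 to 60.4 CPM, and Ebf1 at 142 CPM against 180 to 189 CPM. In iKO 2, Pou4f2 was at 23.6 CPM against 19.3 to 20.03 CPM in the other iKO libraries.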

How the results depend on the processing

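Over 26 alternative settings of iKO against control, 18 of the 34 tested factors kept the sign of their fold change in every setting and 16, all without a call, changed it in at least 1. Calls of a factor as higher were 1 (Tlx3) by DESeq2 and 1 against the tamoxifen-injected controls only, against 0 in the reported fit, and 0 to 1 when a single library was left out (1 without control 5). Calls of a factor as lower were 1 (Runx2) without iKO 1 and control 6, and 0 in every leave-one-out setting. Male against female gave 0 called factors in either direction in every setting run. Among the listed partner, further factor and nociceptor and mechanoreceptor class genes, 3 higher and 2 lower in the reported fit, the higher count was 6 with no filter, 7 by DESeq2, 0 against the corn-oil controls only, 1 in replicates 1 to 4, 6 without iKO 1 and control 6, 6 with the sensory neuron score as a term and 9 with the non-neuronal score, and 2 to 9 (9 without iKO 1) when a library was left out. The lower count was 1 with no filter, against tamoxifen-injected controls, with a term for replicates 1 to 4 against 5 and 6 and in replicates 1 to 4, 0 against corn-oil controls and in replicates 5 and 6, 5 with the sensory neuron score, and 1 to 3 when a library was left out. Calls over all genes moved as well, at 364 without iKO 1, 318 with the non-neuronal score, 242 with the sensory neuron score, 35 in replicates 1 to 4 and 1 against corn-oil controls, against 155 in the reported fit. The cause was not tested. With replicate numbers as a block 0 factors were called and Tlx3 was at 0.35 (adjusted p = 0.448 by edgeR), Sst at 0.61 (adjusted p = 0.102) and Trpm8 at -1.02 (adjusted p = 0.252), both no longer called. The block called 79 genes in all. Same-numbered deviations correlated positively in 5 of 6 pairs (0.255 to 0.431) and at -0.447 in the pair numbered 3, and 3 of 6 iKO libraries correlated best with the control of their number, so the numbers were not taken as pairing the libraries. Factors under about 2 CPM (Neurod1, Hmx1, Eya1) are limited by counts, and neurogenins by detection.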
